A study of Mus musculus with 4 samples.

Results

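The WNT ligands Wnt5a and Wnt5b, the secreted antagonists Sfrp1, Sfrp2, Frzb, Wif1, Dkk2 and Dkk3, and the WNT targets Axin2 and Lef1 were examined in cultured rib chondrocytes with and without Senp6, the gene of a desumoylase that removes SUMO chains from proteins. The 10 genes were taken by symbol from the 18298 genes with a read in at least 1 of 4 RNA-seq libraries, and all 10 were found. The 2 mutant libraries (Senp6-Mut) came from Dermo1-Cre;Senp6f/f embryos, in which Cre is driven from the Dermo1 (Twist2) locus in mesenchymal precursors of the skeleton. The 2 control libraries (WT) came from Senp6f/f embryos, which carry the same floxed alleles without Cre, so that an effect of Cre itself and of the deletion cannot be told apart. All 4 were C57BL/6 rib chondrocytes taken at E18.5 and cultured to passage P1. The labels do not say whether replicates came from separate litters or pooled animals, so the p-values measure the spread between these libraries only, which may be technical.

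WNT proteins are secreted lipid-modified ligands that bind Frizzled receptors. In the canonical branch, which also engages LRP coreceptors, beta-catenin is stabilized and TCF and LEF factors switch on target genes such as Axin2 and Lef1. In the non-canonical branch, which Wnt5a and Wnt5b mostly use, the signal acts on cell polarity and movement without beta-catenin. In growth plate cartilage, WNT signals help to set the balance between chondrocyte identity, maturation and the bone-forming fate of the surrounding perichondrium, and secreted antagonists limit them outside the cell.

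The libraries held 21007449 to 30983806 reads on the genes tested. Senp6 itself stood at 10.8 and 18.0 RPKM (the read count scaled by gene length and by the counted reads of the library) in the controls and 12.0 and 8.07 RPKM in the mutants. The groups overlapped, and the log2 fold change of mutant over control was -0.56 (SE 0.279, edgeR quasi-likelihood test, Benjamini-Hochberg adjusted p = 0.410). A gene-level count cannot show the loss of the floxed exons alone. The Xist count was 11354 in mutant 2 and 2 to 5 in the other libraries, so mutant 2 is the only library with a female pattern. Values without mutant 2 are given beside the results for Sfrp1 and Sfrp2. Control 1 stood apart from control 2 in several matrix and WNT genes, as described below.

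Across the whole table, the 4 libraries were compared with the edgeR quasi-likelihood test over the 14123 genes that reached 10 counts in 2 or more libraries, and all 10 WNT genes passed this filter. No gene passed an adjusted p of 0.05 in either direction (0% of 14123), and the smallest adjusted p was 0.0512. At an unadjusted p under 0.05 there were 1312 genes higher and 887 genes lower in the mutants. DESeq2 called 434 genes higher (3.07%) and 263 lower (1.86%). None of the 10 WNT genes was called higher or lower by edgeR at an adjusted p of 0.05, and DESeq2 called 2 of them lower, Sfrp1 and Sfrp2, and none higher.

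The pattern among the 10 was uneven. Sfrp1 and Sfrp2, the most abundant of the antagonists in the controls, were lower in both mutants than in both controls, Dkk3 was somewhat higher in both mutants, and the values of the other 7 genes overlapped between the groups. This makes 1 of 10 genes with both mutants above both controls, against 25.4% of all genes tested, and 2 of 10 with both mutants below, against 22.8%. The counts without overlap are thus near those of the whole table. The median log2 fold change of the 10 genes was -0.10, beside 0.01 over all genes, and what set Sfrp1 and Sfrp2 apart was the size of their difference: they were the 2 of the 10 with an absolute log2 fold change of at least 1, a size that 8.34% of all genes reached.

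**Figure D1:**
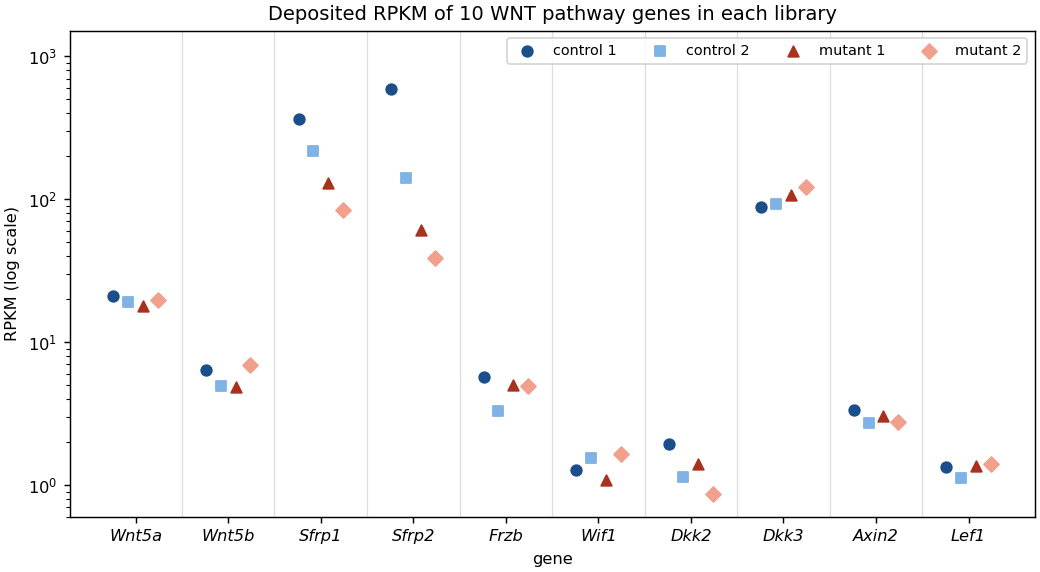
RPKM (vertical axis, log scale) of each of the 10 WNT genes in each library, with blue points for the 2 controls and red points for the 2 mutants. Sfrp2 runs from 593 RPKM in control 1 to 38.6 RPKM in mutant 2, while Wnt5a stays between 17.9 and 21.1 RPKM.

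The sequences just upstream of Sfrp2, the gene with the largest fitted difference of the 10, and of Axin2, a canonical target whose groups overlapped, are shown for comparison. Both are the 250 bases before the annotated transcript start in RefSeq (GRCm38.p6), plus strand, 5′ to 3′, with CG dinucleotides in capitals. The Sfrp2 window is chr3:83766071-83766320 and the Axin2 window is chr11:108920099-108920348.
Sfrp2: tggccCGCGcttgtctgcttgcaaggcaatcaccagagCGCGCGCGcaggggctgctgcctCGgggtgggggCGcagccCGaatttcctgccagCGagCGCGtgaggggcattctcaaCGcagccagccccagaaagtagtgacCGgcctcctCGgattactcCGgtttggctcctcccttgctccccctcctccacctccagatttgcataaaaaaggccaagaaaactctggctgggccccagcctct
Axin2: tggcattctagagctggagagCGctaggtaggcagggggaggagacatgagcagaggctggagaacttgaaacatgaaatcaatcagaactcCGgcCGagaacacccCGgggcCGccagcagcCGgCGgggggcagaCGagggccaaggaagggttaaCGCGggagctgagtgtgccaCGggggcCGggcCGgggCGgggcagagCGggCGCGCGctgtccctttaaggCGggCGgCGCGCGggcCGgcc
The Sfrp2 window held 16 CG dinucleotides, a number reached by 25.4% of all 32851 windows, and the Axin2 window held 24, a number reached by 12.0%. The median of all windows was 6. Windows were found for 7 of the 10 genes, 12 windows in all. The letters CTTTGA, the core that TCF and LEF factors recognize, were searched on both strands and were present in neither window shown. They were present in 13.8% of all windows and in 3 of the 12 windows of these genes (1 each of Frzb, Lef1 and Wnt5b). The letters TATAAA were on either strand in 12.4% of all windows and in 3 of the 12 (1 each of Dkk2, Lef1 and Wif1), again in neither window shown. A match of letters is a description of these windows only.

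Sfrp2 encodes a secreted Frizzled-related protein, which carries a Frizzled-like cysteine-rich domain and binds WNT ligands outside the cell. Its level was 593 and 141 RPKM in control 1 and control 2, and 61.0 and 38.6 RPKM in mutant 1 and mutant 2. Both mutants lay below both controls, and the gap between the nearest libraries of the 2 groups, mutant 1 and control 2, was 1.20 on the log2 scale of normalized counts. The log2 fold change of mutant over control was -2.94 (SE 0.754, 95% interval -4.89 to -0.98, n = 2 per group), which corresponds to a 7.66-fold lower level and ranked 15 from the lowest of 14123 genes. The edgeR adjusted p was 0.181 (unadjusted 0.0120), so the difference did not pass the threshold. The controls differed from each other by 2.13 on the log2 scale, more than the mutants did (0.70). Control 1 sets much of the size: without it the fitted difference was -1.51 on the log2 scale. Without control 2 it was -3.67. Without mutant 2, the library with the female pattern, it was -2.63 (SE 1.85), and without mutant 1 it was -3.32 (SE 1.93). Such fits leave 1 library in a group, so no p-value is given for them.

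Sfrp1, the closest relative of Sfrp2 in this set by name and domain structure, showed the same order of libraries with a smaller range. Its level was 366 and 219 RPKM in the controls and 130 and 84.0 RPKM in the mutants. The 2 groups did not overlap, and mutant 1 and control 2 were 0.74 apart on the log2 scale of normalized counts. The log2 fold change was -1.50 (SE 0.317, 95% interval -2.26 to -0.73, n = 2 per group), a 2.82-fold lower level, with an edgeR adjusted p of 0.110 (unadjusted 0.00259). The difference between the controls was 0.80 and that between the mutants was 0.67. Without control 1 the fitted value was -1.05 and without mutant 2 it was -1.19. Leaving out control 2 gave -1.87 and leaving out mutant 1 gave -1.86. By DESeq2 the adjusted p was 2.13e-05 for Sfrp1 and 0.0496 for Sfrp2, and in edgeR with a block for replicate number, a fit that called 0.595% of all genes higher and 0.234% lower, it was 0.0365 and 0.0396.

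The ratio of the 2 genes also differed between libraries. The RPKM of Sfrp2 over that of Sfrp1 was 1.62 in control 1, 0.642 in control 2, 0.468 in mutant 1 and 0.460 in mutant 2. Control 1 was therefore the only library in which Sfrp2 exceeded Sfrp1, and the order of the 2 genes in the controls does not hold beyond their spread. Counting error was small beside these differences: 2184 to 24952 reads were counted for Sfrp2 and 10420 to 33801 for Sfrp1.

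**Figure D2:**
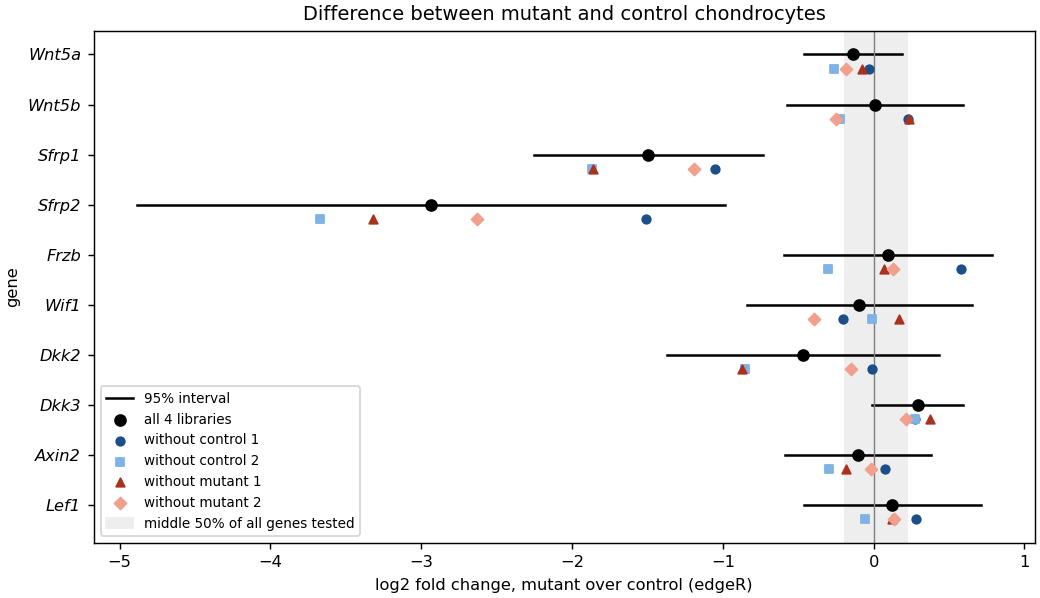
Log2 fold change of mutant over control from edgeR (horizontal axis) for each of the 10 WNT genes (vertical axis), as black points with 95% intervals; coloured points give the value when 1 library is left out and the grey band spans the middle 50% of all genes tested. The intervals of Sfrp1 (-2.26 to -0.73) and Sfrp2 (-4.89 to -0.98) lie below 0, and the Sfrp2 value ranges from -3.67 to -1.51 as single libraries are left out.

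Frzb, also known as Sfrp3, belongs to the same family and is typical of articular and resting cartilage. It did not share the pattern of Sfrp1 and Sfrp2. Its level was 5.72 and 3.28 RPKM in the controls and 4.99 and 4.92 RPKM in the mutants, with the mutants between the controls. The log2 fold change was 0.10 (SE 0.287, 95% interval -0.59 to 0.78, edgeR adjusted p = 0.912). Sfrp4, another family member with 4.84 and 5.12 RPKM in the controls, was at 7.11 and 8.35 RPKM in the mutants, a log2 fold change of 0.59 (SE 0.186, edgeR adjusted p = 0.204). The measured secreted Frizzled-related genes thus did not share a direction.

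Wif1, which binds WNT ligands through a domain of its own, was near the low end of the set. Its level was 1.27 and 1.54 RPKM in the controls and 1.08 and 1.64 RPKM in the mutants, from 60 to 104 reads. The mutants spanned the controls, and the log2 fold change was -0.09 (SE 0.311, 95% interval -0.84 to 0.65, edgeR adjusted p = 0.919). Counting error alone was up to 12.9% of the value in a library for this gene.

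The Dickkopf genes differed from each other. Dkk2, which binds the LRP coreceptors, was at 1.93 and 1.14 RPKM in the controls and 1.402 and 0.870 RPKM in the mutants. The groups overlapped, since mutant 1 exceeded control 2, and the log2 fold change was -0.47 (SE 0.376, 95% interval -1.37 to 0.43, edgeR adjusted p = 0.618). Without control 1 it was -0.01 and without mutant 1 it was -0.87, so that single libraries decided its size.

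Dkk3, the divergent member of the family, which does not act on LRP coreceptors as its relatives do, was much more abundant. Its level was 87.9 and 93.4 RPKM in the controls and 106 and 122 RPKM in the mutants. Both mutants lay above both controls, by 0.19 between the nearest libraries on the log2 scale. The log2 fold change was 0.29 (SE 0.127, 95% interval -0.01 to 0.60, n = 2 per group), and the edgeR adjusted p was 0.341 (unadjusted 0.0577). It stayed between 0.21 and 0.38 as single libraries were left out.

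The make-up of the antagonist transcripts therefore differed between libraries. The RPKM of the 6 antagonists summed to 1057 in control 1, 459.7 in control 2, 305 in mutant 1 and 252 in mutant 2. Sfrp1 and Sfrp2 made up 90.8% and 78.4% of that sum in the controls and 62.7% and 48.6% in the mutants. Dkk3 made up 8.32% and 20.3% in the controls and 34.9% and 48.4% in the mutants. These shares come from the same values as the fold changes above and are not separate evidence. In control 2 and mutant 1, Sfrp1 had the highest RPKM of the 10 genes; in control 1 it was Sfrp2 and in mutant 2 it was Dkk3. With 2 libraries against 2, an exact permutation test of any single value cannot go below p = 0.33 (two-sided).

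The 2 ligands were level between the groups. Wnt5a, a ligand of the non-canonical branch that is required for limb and rib outgrowth, was at 21.1 and 19.0 RPKM in the controls and 17.9 and 19.8 RPKM in the mutants. The log2 fold change was -0.14 (SE 0.136, 95% interval -0.46 to 0.19, edgeR adjusted p = 0.694). This interval excludes a difference as large as those fitted for Sfrp1 and Sfrp2. Wnt5b, its close relative that is known from prehypertrophic chondrocytes, was at 6.41 and 4.94 RPKM in the controls and 4.84 and 6.95 RPKM in the mutants. Here the mutants spanned the controls, and the log2 fold change was 0.01 (SE 0.243, 95% interval -0.58 to 0.59, edgeR adjusted p = 0.990), and the sign turned with RLE size factors (-0.01) but not with library totals (0.06).

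Wnt5a was the leading WNT ligand transcript in every library. It made up 40.8% and 39.9% of the summed RPKM of all WNT ligands in the controls and 37.4% and 35.3% in the mutants. That sum itself was 51.8 and 47.7 RPKM in the controls and 48.0 and 55.9 RPKM in the mutants. Set against the ligand, Sfrp1 was at 17.3 and 11.5 times the RPKM of Wnt5a in the controls and at 7.27 and 4.25 times in the mutants. For Sfrp2 the ratio was 28.1 and 7.42 in the controls and 3.40 and 1.95 in the mutants. The ratios follow the antagonists, since Wnt5a varied little.

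Axin2 and Lef1 are read as targets of the canonical branch. Axin2, a scaffold of the complex that degrades beta-catenin and a feedback target in most tissues, was at 3.32 and 2.71 RPKM in the controls and 3.02 and 2.76 RPKM in the mutants. Both mutants lay between the controls in RPKM. In normalized counts mutant 2 (11.51) was level with control 2 (11.54), just below it, and the groups overlapped. The log2 fold change was -0.10 (SE 0.201, 95% interval -0.58 to 0.38, edgeR adjusted p = 0.857). Lef1, which encodes a DNA-binding partner of beta-catenin, was at 1.34 and 1.12 RPKM in the controls and 1.37 and 1.39 RPKM in the mutants. The log2 fold change was 0.12 (SE 0.244, 95% interval -0.46 to 0.71, edgeR adjusted p = 0.857). Although both mutants were nominally above both controls in RPKM, the groups overlapped in normalized counts, and the 103 to 155 reads per library limit the precision. Differences within these intervals were not detectable with 2 libraries per group.

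The rest of the pathway was read from 9 lists of genes, which held 112 genes in all, 109 of them with a read and 96 tested. None of the 96 was called by edgeR at an adjusted p of 0.05 in either direction. DESeq2 called 3 of the 96 higher and 11 lower, beside 3.07% higher and 1.86% lower of all genes tested. Both mutants were above both controls for 28 of the 96 (29.2%, against 25.4% of all genes) and below for 32 (33.3%, against 22.8%). The count of each list below is to be read against these shares of all genes. The median log2 fold change was -0.05, and 30 of the 96 had an unadjusted edgeR p under 0.05, beside 9.29% higher and 6.28% lower of all genes.

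Among the other WNT ligands, 9 of 17 were tested, 4 with both mutants above, 2 below and 3 overlapping, with a median log2 fold change of 0.27. Wnt10a, a canonical ligand, was at 5.78 and 6.66 RPKM in the controls and 8.05 and 11.5 RPKM in the mutants (log2 fold change 0.61, SE 0.211). Wnt10b was at 2.91 and 3.86 RPKM in the controls and 4.93 and 5.61 RPKM in the mutants. Wnt16 went the other way, with 6.71 and 4.52 RPKM in the controls and 2.21 and 2.76 RPKM in the mutants (log2 fold change -1.22, SE 0.285, edgeR adjusted p = 0.123). Wnt7b had a log2 fold change of -1.03 (SE 0.241, edgeR adjusted p = 0.125). Ligands on both sides of 0 thus stood around an even summed level.

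Of the other secreted antagonists, 5 of 10 were tested, 3 above, 1 below and 1 overlapping. The abundant one was Igfbp4, an IGF-binding protein that also binds Frizzled and LRP proteins. It was at 1049 and 609.6 RPKM in the controls and 333 and 354 RPKM in the mutants, and the groups did not overlap. Its log2 fold change was -1.32 (SE 0.265, edgeR adjusted p = 0.0990), the same direction as for Sfrp1 and Sfrp2, and without control 1 it was -0.85. Genes with very few reads stood on the other side. Dkkl1 was counted 2 and 0 times in the controls and 17 and 19 times in the mutants, and Sostdc1 4 and 0 times in the controls and 17 and 14 times in the mutants. Notum, a WNT-inactivating enzyme, overlapped between the groups (1.55 to 2.10 RPKM in the controls, 0.863 and 1.81 RPKM in the mutants). With these low counts in it, the median of this list, 0.59, moved to -0.51 when at least 10 counts were required in every library.

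The R-spondins amplify WNT signals by keeping Frizzled receptors at the cell surface. Rspo1, Rspo2 and Rspo3 were each lower in both mutants than in both controls. Rspo3 was at 18.47 and 7.05 RPKM in the controls and 3.81 and 4.95 RPKM in the mutants (log2 fold change -1.60, SE 0.441, edgeR adjusted p = 0.166). Rspo1 had a log2 fold change of -1.66 (SE 0.388) and Rspo2 of -1.42 (SE 0.459). The 3 genes summed to 27.7 and 11.1 RPKM in the controls and 5.91 and 7.71 RPKM in the mutants, so control 1 was high here as it was for Sfrp2. As single libraries were left out, the log2 fold change of Rspo1 ran from -2.08 to -1.16. Without control 1 the log2 fold change was -0.71 for Rspo3 and -0.54 for Rspo2. Their receptors were mixed. Lgr4 was at 15.4 and 20.01 RPKM in the controls and 18.0 and 17.1 RPKM in the mutants, and Lgr6 was at 0.998 and 3.12 RPKM in the controls and 4.43 and 4.01 RPKM in the mutants. Lgr5, named after its values were seen, was at 1.18 and 0.780 RPKM in the controls and 0.705 and 0.631 RPKM in the mutants (log2 fold change -0.59, SE 0.310, edgeR adjusted p = 0.429). Of the 8 tested genes of this list, 4 were below, 1 above and 3 overlapping, with a median of -0.32.

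**Figure D3:**
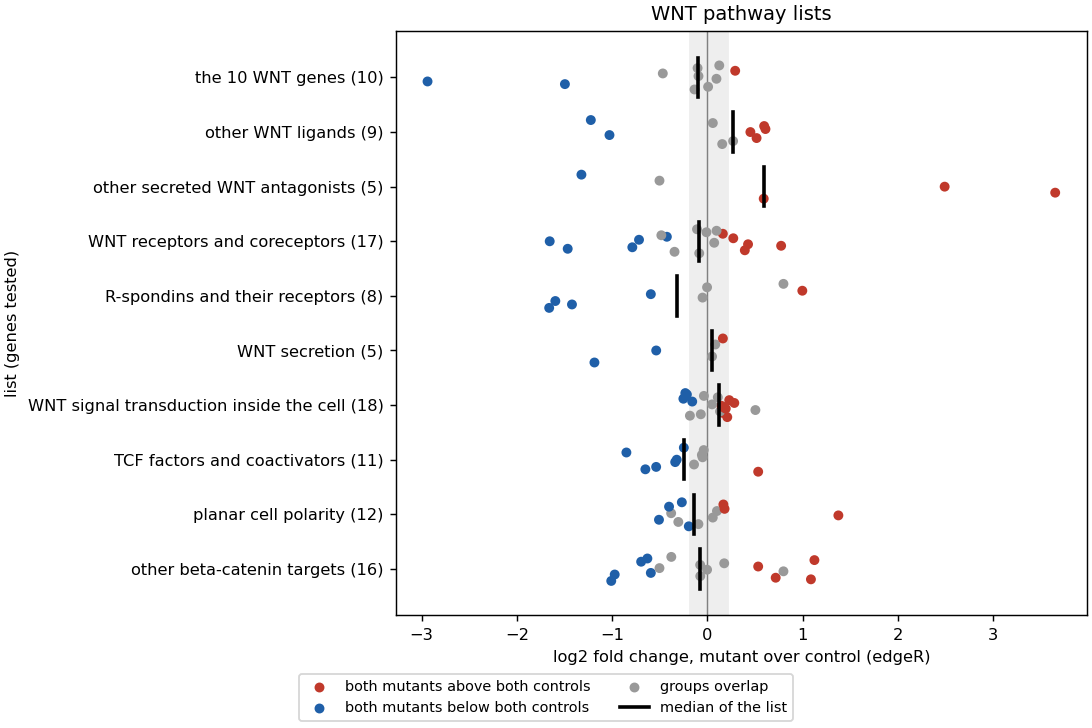
Log2 fold change of mutant over control from edgeR (horizontal axis) of each tested gene of the 10 WNT genes and of 9 pathway lists (vertical axis), coloured by whether the 2 mutants lie above, below or among the 2 controls; black bars are list medians and the grey band spans the middle 50% of all genes tested. The list medians run from -0.32 for the R-spondins and their receptors to 0.59 for the other secreted antagonists, and Sfrp2 is the lowest point.

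Among receptors and coreceptors, 5 of 17 tested genes were above, 5 below and 7 overlapping (median -0.09), or 29.4% each way beside 25.4% above and 22.8% below of all genes. The abundant Ryk, Ptk7 and Fzd1 had log2 fold changes of -0.01, 0.10 and -0.09. Fzd4 and Fzd9 were lower, with 8.32 and 4.02 RPKM against 2.63 and 1.98 RPKM for Fzd4 (log2 fold change -1.47, SE 0.371) and a log2 fold change of -1.65 (SE 0.454) for Fzd9. In WNT secretion, 1 of 5 genes was above, 2 below and 2 overlapping. Wls, the carrier of WNT proteins, had a log2 fold change of 0.05, Gpc4 of 0.08 and Gpc3 of -0.54, while Porcn, the enzyme that lipid-modifies WNT proteins, was at 10.5 and 6.17 RPKM in the controls and 3.81 and 3.75 RPKM in the mutants (log2 fold change -1.19, SE 0.292, edgeR adjusted p = 0.135). Without control 1 the values were -0.82 for Fzd4, -0.998 for Fzd9 and -0.72 for Porcn.

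In signal transduction inside the cell, differences were small. Of 18 tested genes of signal transduction 7 were above, 4 below and 7 overlapping, and log2 fold changes ran from -0.25 to 0.50. Ctnnb1, which encodes beta-catenin, was at 174 and 180.1 RPKM in the controls and 181 and 174 RPKM in the mutants (log2 fold change -0.04, SE 0.122). Csnk1a1 and Csnk1d, casein kinases of the pathway, had log2 fold changes of 0.15 and 0.05. Of 11 TCF factors and coactivators, 6 were below (54.5%, beside 22.8% of all genes), 1 above and 4 overlapping (median -0.25). Their log2 fold changes ran from -0.85 to 0.53, and 3 had an unadjusted edgeR p under 0.05. Tcf7l1, a mostly repressive TCF factor, was at 53.9 and 40.5 RPKM in the controls and 33.1 and 28.9 RPKM in the mutants (log2 fold change -0.65, SE 0.188, edgeR adjusted p = 0.179), while Bcl9l had a log2 fold change of -0.34 and Tle3 of -0.04.

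Planar cell polarity, the branch in which Wnt5a acts, had 3 of 12 tested genes above, 4 below and 5 overlapping (median -0.14). Prickle3, Vangl1 and Scrib, the most abundant, had log2 fold changes of 0.06, -0.19 and 0.17. Celsr1 was low, with 28 and 35 reads in the controls and 100 and 111 reads in the mutants (log2 fold change 1.37, SE 0.303, edgeR adjusted p = 0.115).

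Of the other genes known as beta-catenin targets, 4 of 16 tested were above, 5 below and 7 overlapping (median -0.08), near the 25.4% above and 22.8% below of all genes. Nkd2, a feedback inhibitor, was at 4.14 and 3.73 RPKM in the controls and 7.64 and 9.59 RPKM in the mutants (log2 fold change 1.09, SE 0.176, edgeR adjusted p = 0.0833). Its relative Nkd1 was at 13.0 and 4.88 RPKM in the controls and 4.70 and 4.49 RPKM in the mutants (log2 fold change -1.01, SE 0.425), and without control 1 the value was -0.10. Ccnd1, the cyclin of G1 phase, was at 64.4 and 81.5 RPKM in the controls and 117 and 130.01 RPKM in the mutants (log2 fold change 0.72, SE 0.146, edgeR adjusted p = 0.101). Cd44, a hyaluronan receptor, was at 27.5 and 60.9 RPKM in the controls and 88.3 and 109 RPKM in the mutants, and Twist1 was at 63.6 and 40.7 RPKM in the controls and 33.9 and 32.7 RPKM in the mutants. Of the targets named here, Nkd2, Ccnd1 and Cd44 therefore stood higher in both mutants, Nkd1 and Twist1 stood lower in both, and the groups overlapped for Axin2.

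Cell type markers also differed between the libraries, in ways that varied from list to list. The labelled cell type was checked against its markers. Col2a1, the main collagen of cartilage, was at 609.0 and 659 RPKM in the controls and 334 and 445 RPKM in the mutants. Of 14 chondrocyte markers tested, 13 were below in both mutants and 1 overlapped (median log2 fold change -1.59), and their RPKM summed to 1061 and 1039 in the controls and 521 and 659 in the mutants. Col11a1 and Comp had log2 fold changes of -0.56 and -1.68. Fibroblast and perichondrium markers summed to 13042 and 9100 RPKM in the controls and 9174 and 6785 RPKM in the mutants, with 6 of 11 below, 2 above and 3 overlapping. Col1a1, Col1a2 and Col3a1 led this list, with log2 fold changes of -0.63, -0.61 and -0.83. Col1a1 was the gene with the most reads in every library, and the summed level of the fibroblast list exceeded that of the chondrocyte list in every library. Cartilage markers were thus present in all 4 libraries, but these values do not show a pure chondrocyte population.

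Of the osteoblast markers, 5 of 6 tested were below and 1, Spp1, was above (310.1 and 468 RPKM in the controls, 479 and 600.4 RPKM in the mutants), with Alpl at -2.06 and Ibsp at -2.48 on the log2 scale. Striated muscle markers summed to 100.3 and 35.3 RPKM in the controls and 176 and 196 RPKM in the mutants, with 6 of 10 above, none below and 4 overlapping. Its leading genes Acta1, Des and Actc1 had log2 fold changes of 1.25, 1.58 and 1.85. Tendon and joint markers had 4 of 6 above and 2 overlapping, and summed to 71.1 and 47.5 RPKM in the controls and 54.4 and 54.3 RPKM in the mutants. Its leading genes Tnmd, Scx and Gdf5 had log2 fold changes of -0.58, 0.03 and 0.98. Macrophage and blood markers summed to 22.04 and 20.46 RPKM in the controls and 11.1 and 16.5 RPKM in the mutants, with 7 of 8 below, Lyz2 at -1.43, Cd68 at -0.38 and Cd14 at 0.54 on the log2 scale. Endothelial markers, led by Kdr, Tek and Cdh5, summed to 0.901 to 1.57 RPKM in any library. The part of these marker differences in the lower Sfrp1 and Sfrp2 was not tested. In bulk RNA, fewer cells of a type and less RNA per cell cannot be told apart.

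**Figure D4:**
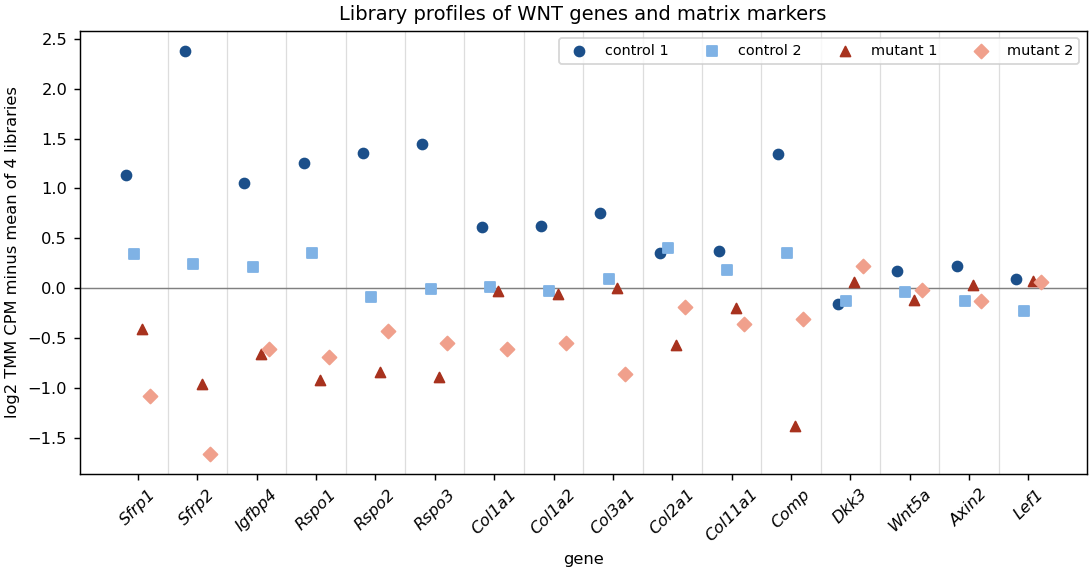
Log2 normalized read counts (TMM CPM, counts scaled by library size) of selected genes in each library minus the mean of the 4 libraries (vertical axis), for WNT genes and for matrix genes of the fibroblast and chondrocyte marker lists (horizontal axis). Control 1 is the highest library for Sfrp1, Sfrp2, Igfbp4, the 3 R-spondins and the 3 fibroblast collagens. It is also the highest for the chondrocyte markers Col11a1 and Comp, but not for Col2a1. Wnt5a, Dkk3, Axin2 and Lef1 stay within a narrow band.

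The order of libraries seen for Sfrp2 (control 1, control 2, mutant 1, mutant 2) was also that of Sfrp1 and of the 3 fibroblast collagens. Col11a1, of the chondrocyte list, had this order too, and so did Fzd4, Porcn, Tcf7l1 and Twist1. The order was thus not particular to fibroblast markers or to secreted antagonists. The share of all genes with this order was not counted, so the match does not link these genes. In contrast, Col2a1 was higher in control 2 than in control 1 and higher in mutant 2 than in mutant 1. Thy1, of the fibroblast list, ran in the reverse order, from 219 RPKM in control 1 to 832 RPKM in mutant 2. Reads covered between 70.0% and 100% of the annotated length of each of the 10 genes in every library. This value does not show how evenly the reads were spread along a gene. Coverage was lower for list genes with few reads, such as Celsr1 (24.6% and 24.0% in the controls).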

How the data were processed

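Total RNA of cultured rib chondrocytes was enriched for poly(A) RNA and sequenced by a service. The authors deposited, for each gene with a read, the unnormalized read count, an RPKM value and a coverage value, in percent of gene length. The deposited RPKM equals the count scaled by the listed gene length and the summed counts of the library. Per the labels, the submitters' processing notes name SAMtools and the mm9 build; the aligner, the counting tool and the use of strand are not given in the sources used here. A gene not listed in a library was given a count of 0.

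The counts entered edgeR 4.0.16 in R 4.3.3 (quasi-likelihood F test, TMM normalization, robust estimation, at least 10 counts in at least 2 libraries), with Benjamini-Hochberg adjustment over 14123 genes. The standard error is the fold change over the root of F, and 95% intervals from the t distribution with the moderated degrees of freedom. The steps were tested on simulated data with the same spread between replicates in both groups. In the real data the coefficient of variation between replicates, beyond counting noise, was 0.208 in the controls and 0.121 in the mutants. The simulation thus checks the steps and not the effect of this uneven spread. Between the replicates of a group, counts differed by more than sampling noise, so each library counted as 1 sample. The main fit did not pair libraries by replicate number, since the labels do not say that this number marks a shared litter. The alternatives were DESeq2 1.42.0, limma 3.58.1 on log2(RPKM + 1) and log2(RPKM + 0.1), other scalings and filters, the replicate block, leaving out each library and, chosen after seeing the data, leaving out the genes of X and Y.

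The 10 genes and the lists were chosen with earlier results of these data known. The text names the 10 genes, Senp6, the 3 genes of highest mean RPKM of each list, any called gene of a pathway list, and up to 4 of its genes with an absolute log2 fold change of at least 1 and no overlap. Xist, Lgr5 and Thy1 were named after their values were seen. Promoter windows are from RefSeq (GRCm38.p6), and no coordinates of the files were used. Intervals and counting errors cover counting and library spread only. Nothing was excluded among the 4 samples.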

Additional observations from a re-analysis of the deposited data

How the results depend on the processing

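Each arm holds 2 libraries, and a fit without a library assumes that the lone one varies like the others. The directions of Wnt5a, Sfrp1, Sfrp2, Dkk2 and Dkk3 held under every alternative run. The value of Wnt5b, 0.01, turned to -0.00991 (DESeq2), -0.00972 (RLE size factors) and -0.00658 (no filter). Leaving out single libraries gave -0.249 to 0.234 for Wnt5b, -0.305 to 0.58 for Frzb, -0.397 to 0.17 for Wif1, -0.298 to 0.0778 for Axin2 and -0.056 to 0.284 for Lef1. The number of genes called higher and lower, 0 and 0, became 434 and 263 with DESeq2, 6 and 2 with library totals, 225 and 61 without the filter, and 2 and 0 without the genes of X and Y. As single libraries were left out it ran from 68 to 1296 higher and from 37 to 1444 lower. Of the 10 WNT genes, 2 were called lower with DESeq2 (Sfrp1 and Sfrp2) and 0 to 2 as single libraries were left out. Of the pathway lists, 3 genes were called higher and 11 lower with DESeq2, 2 were called higher without the filter, and 0 to 7 higher and 0 to 27 lower as single libraries were left out. The number without overlap, 1 above and 2 below, became 2 above with library totals, and 1 to 3 above and 2 to 7 below as single libraries were left out, where 1 library stands for an arm. The cause of these shifts was not tested, except that a group of 1 library overlaps less by construction.

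Across genes, the difference between replicate 1 and replicate 2 in the controls had a correlation of -0.06 with that in the mutants. This cannot tell whether libraries of the same replicate number shared a litter, and mutant 2 also differs from mutant 1 by its female pattern. For Sfrp1 and Sfrp2, replicate 1 was the higher in both groups. The log2 differences were 0.80 in the controls and 0.67 in the mutants for Sfrp1, and 2.13 and 0.70 for Sfrp2. With the replicate block, edgeR called 84 genes higher (0.595%) and 33 lower (0.234%), among them 2 of the 10 WNT genes, Sfrp1 and Sfrp2, both lower; the block changed no other call among the 10. Low counts limit Wif1, Dkk2 and Lef1 most.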
